A study of Sus scrofa with 48 samples.

Results

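Genes of the unfolded protein response and of endoplasmic reticulum (ER)-associated degradation were examined in the subcutaneous adipose tissue (SCAT) of growing pigs. The list held 39 genes, chosen by symbol for their known function, with earlier results of these data known. It was divided by role into 15 chaperones and folding enzymes, 9 stress sensors and transcription factors, 12 genes of ER-associated degradation and 3 genes of the translocon. Probes that carried a symbol of the list were found for 35 genes, and all 35 had a probe above background and could be tested, among 11097 genes tested in all. *TRIB3*, *CREB3L2*, *DERL2* and *EDEM1* had no probe that carried their symbol. *ERO1L* and *UFD1L* are given under the names that the array uses, and are now called *ERO1A* and *UFD1*.

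Pigs were barrows of the Large White breed, 132 days old per the labels, from 2 lines that had been selected apart for residual feed intake (RFI). Residual feed intake compares what a pig eats with what its growth and size would call for, and a low value marks an efficient pig. Within each line, 12 pigs were fed a diet rich in fat and insoluble fiber (HF). The other 12 were fed a diet rich in starch and poor in fat (LF). The diets had equal energy and protein content, and fat, fiber and starch all differed between them. The study reported that HF pigs ate less, ended the trial lighter and had less body fat than LF pigs. Feed intake and adiposity thus differed along with the composition of the diet, and cannot be told apart from it here. One array per pig was hybridized with Cy3-labelled RNA, which gave 4 groups of 12 arrays, 1 for each diet in each line. Levels below are log2 intensities relative to the median probe of the array (set at 0). Differences are given as HF minus LF or low RFI minus high RFI.

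Secreted and membrane proteins enter the ER through the translocon and are folded there by chaperones and by enzymes that form disulphide bonds. When unfolded proteins build up, the sensors IRE1 (*ERN1*), PERK (*EIF2AK3*) and ATF6 start the unfolded protein response: IRE1 splices the mRNA of *XBP1*, PERK phosphorylates eIF2 (alpha subunit *EIF2S1*), which favours translation of *ATF4*, and ATF6 is cleaved into a transcription factor. Proteins that do not fold are pulled back into the cytosol and destroyed by the proteasome, which is ER-associated degradation. Adipocytes secrete adipokines and lipases, and the ER is also where their triglycerides are made.

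The share of probes above background ran from 62.2 to 81.9% over the 24 HF arrays and from 69.3 to 78.6% over the 24 LF arrays. The 3 arrays with the lowest shares were all from HF pigs, and results are also given without them. The 48 arrays lay on 6 slides with 2 arrays of each group on every slide. The 4 defining adipocyte markers were measured under both diets, at mean log2 levels in HF pigs of 9.20 (*ADIPOQ*), 7.83 (*PLIN1*), 8.65 (*LIPE*) and 9.68 (*FABP4*). In such bulk tissue, fewer cells of a type and less RNA per cell cannot be told apart.

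The members were measured by 117 probes of 60 bases each, of which 112 passed the filter. Probes of the same gene are not always separate measurements, as a pair for *ATF4* shows. The 50 bases that both probes share are in capitals.
ATF4 probe A_72_P284859: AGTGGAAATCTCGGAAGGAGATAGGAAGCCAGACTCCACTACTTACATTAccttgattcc
ATF4 probe A_72_P689016: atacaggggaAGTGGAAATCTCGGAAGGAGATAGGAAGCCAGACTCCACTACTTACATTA
In all, 16 pairs of probes of the same member, from 10 genes, shared a run of at least 20 bases on the same strand. Another 3 pairs, from *HSP90B1* and *SDF2L1*, shared such a run with the reverse complement of the partner, so that the partners read opposite strands. The pair of *HSP90B1* is printed with the 39 complementary bases in capitals.
HSP90B1 probe CUST_304_PI427286967: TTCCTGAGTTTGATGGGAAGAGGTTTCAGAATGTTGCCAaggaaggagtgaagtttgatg
HSP90B1 probe O7995: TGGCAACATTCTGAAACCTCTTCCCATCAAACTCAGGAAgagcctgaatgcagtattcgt
Probe O7995 was above background on 43 of the 48 arrays, and was not the probe used for the gene.

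The comparison of diets asked which of these genes responded when fat and fiber replaced part of the starch. Under the HF diet, 12 of the 35 members were down-regulated and none was up-regulated, with log2 differences from -0.32 to -0.14, that is at most 1.25-fold. Among all genes tested, 9.34% were called lower and 3.28% higher, 12.6% in all (limma, raw p under 0.01, fold change over 1.1 and Benjamini-Hochberg adjusted p under 0.08). The members called were the chaperones and folding enzymes *HYOU1*, *DNAJB9*, *DNAJC3*, *HSP90B1*, *CANX* and *P4HB*, the transcription factor *ATF4*, the degradation genes *DERL1*, *NPLOC4*, *VCP* and *OS9*, and the translocon subunit *SEC61A1*. The study had itself picked *ATF4*, *DERL1*, *OS9*, *VCP* and *UFD1L* for diet from these pigs, so that these are not independent evidence of the direction. In all, 32 members had a difference below 0, and the median over the 35 was -0.12, beside -0.04 over all genes tested.

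The count depended on the scaling. When arrays were scaled on their 75th percentile instead, which set the median of all genes at 0.00, 5 members were called lower and none higher, and their median was -0.08. With that scaling 623 genes were called higher and 576 lower among all genes, in place of 364 and 1037. After quantile normalization 6 members were called lower and none higher, beside 754 genes lower and 491 higher among all 11097. *ATF4*, *DNAJC3*, *DERL1* and *SEC61A1* were called under all 3 scalings. Of 18 alternatives, the call of *ATF4* was lost in 0, those of *DNAJC3* and *SEC61A1* in 1, of *CANX*, *DERL1*, *OS9* and *VCP* in 3, of *HYOU1* and *NPLOC4* in 4, of *HSP90B1* in 5, of *P4HB* in 8 and of *DNAJB9* in 9. All of these but *ATF4* were lost within at least 1 of the scan dates, which hold 24 arrays each.

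**Figure D1:**
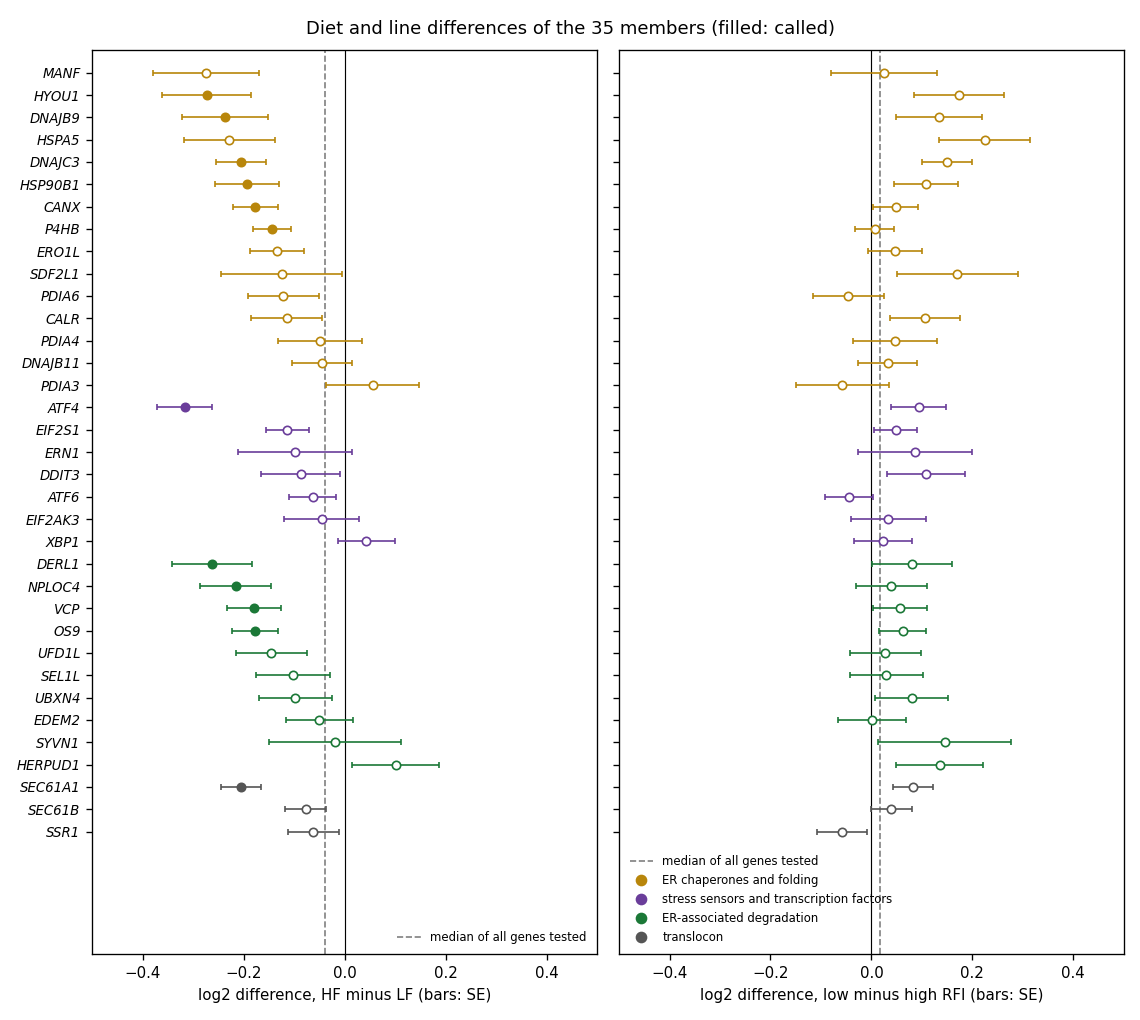
Log2 differences of the 35 members between diets (left, HF minus LF) and between lines (right, low minus high RFI) with standard errors, coloured by role. Filled points passed the cut-offs, and the dashed line is the median of all genes tested. The 12 filled points are all on the left and below 0, and most points on the right lie between 0 and 0.2.

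Chaperones and folding enzymes were 15, all tested. Of these, 6 were called lower and 14 had a difference below 0, with a median of -0.14. *HYOU1*, a large chaperone of the Hsp70 family that helps *HSPA5* to exchange its nucleotide, ranged from 3.43 to 4.85 in HF pigs (median 3.90) and from 3.71 to 4.90 in LF pigs (median 4.18). The groups overlapped widely, yet 21 of the 24 LF pigs were above the HF mean. Its log2 difference was -0.27 (SE 0.09, adjusted p = 0.0366), and ran from -0.43 to -0.11 over the alternatives, with both other scalings and each scan date alone losing the call (adjusted p up to 0.534).

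*DNAJC3*, a co-chaperone of *HSPA5* that also inhibits the kinase PERK, ranged from 1.49 to 2.48 in HF pigs (median 1.87) and from 1.73 to 2.46 in LF pigs (median 2.09). The highest pig of all was an HF pig, yet 23 of 24 LF pigs exceeded the HF mean. The log2 difference was -0.20 (SE 0.05, adjusted p = 0.00468), and its 3 probes were all called lower. *DNAJB9*, a co-chaperone that restrains IRE1, had a log2 difference of -0.24 (SE 0.09, adjusted p = 0.0632), from 1.20 to 2.35 in HF pigs and from 1.64 to 2.75 in LF pigs, with 9 HF pigs below the lowest LF pig. This call was lost under 9 of the 18 alternatives, among them both other scalings and slide as a block. Others were the fit without the 3 arrays of lowest share above background (-0.23, adjusted p = 0.0908) and the first scan date alone (-0.06). The call held within the second scan date (-0.41). Over the alternatives its adjusted p ran from 0.0329 to 0.826.

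*HSPA5* encodes BiP, the main ER chaperone and the protein that holds the sensors inactive. Its level ranged from 5.22 to 6.75 in HF pigs (median 5.82) and from 5.53 to 6.69 in LF pigs (median 5.95). Both groups covered nearly the same range, and 14 of 24 LF pigs exceeded the HF mean. The log2 difference of -0.23 (SE 0.09, adjusted p = 0.0917) did not pass the cut-offs at this probe or at its other 2 probes, but it did with scan date as a block (adjusted p = 0.0626) and with array weights (adjusted p = 0.0287), in a range up to 0.556 over the alternatives.

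*HSP90B1* encodes GRP94, the ER chaperone of the Hsp90 family. It ranged from 5.65 to 6.70 in HF pigs (median 5.94) and from 5.84 to 6.63 in LF pigs (median 6.14), with 6 HF pigs below the lowest LF pig. Its log2 difference was -0.19 (SE 0.06, adjusted p = 0.0406). Over the alternatives it ran from -0.28 to -0.11 (limma adjusted p up to 0.347), with both other scalings and each scan date alone among those that lost the call. Leaving aside probe O7995, which reads the opposite strand from its partner, the 9 kept probes of the gene all had a difference below 0, from -0.20 to -0.16, and 4 of them were called.

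Of the calnexin and calreticulin pair, which bind newly made glycoproteins, only *CANX* was called. Calnexin ranged from 5.85 to 6.51 in HF pigs and from 6.02 to 6.60 in LF pigs, a log2 difference of -0.18 (SE 0.04, adjusted p = 0.00738). Over the alternatives it ran from -0.28 to -0.08 (limma adjusted p up to 0.491). Both other scalings and the first scan date alone lost the call. For *CALR* the log2 difference was -0.11 (SE 0.07, adjusted p = 0.303). The difference between the 2 genes was not tested.

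Among the protein disulphide isomerases, *P4HB* differed by -0.14 (SE 0.04, adjusted p = 0.0104), the smallest change of the 12 called, and its call was lost under 8 of the 18 alternatives, both other scalings and each scan date alone among them. It ranged from 7.76 to 8.34 in HF pigs and from 8.01 to 8.45 in LF pigs, and 7 HF pigs were below the lowest LF pig. *PDIA3*, *PDIA4* and *PDIA6* were at 0.06, -0.05 and -0.12 and did not pass, nor did the oxidase *ERO1L* that recharges them (-0.13, adjusted p = 0.0995). The other probe of *PDIA6* was called (-0.22), so that its probes disagree on the call. *PDIA4* and *PDIA6* did pass with the array median as covariate, *PDIA6* also with the mean of all kept probes, and *ERO1L* with no filter on dim probes. *MANF*, a small secreted ER protein, had a log2 difference of -0.28 (SE 0.10) but missed the cut-off on the raw p, while its other probe was called at -0.27. With the mean of all kept probes *MANF* passed. *DNAJB11* and *SDF2L1* differed by -0.04 and -0.12 and did not pass either.

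**Figure D2:**
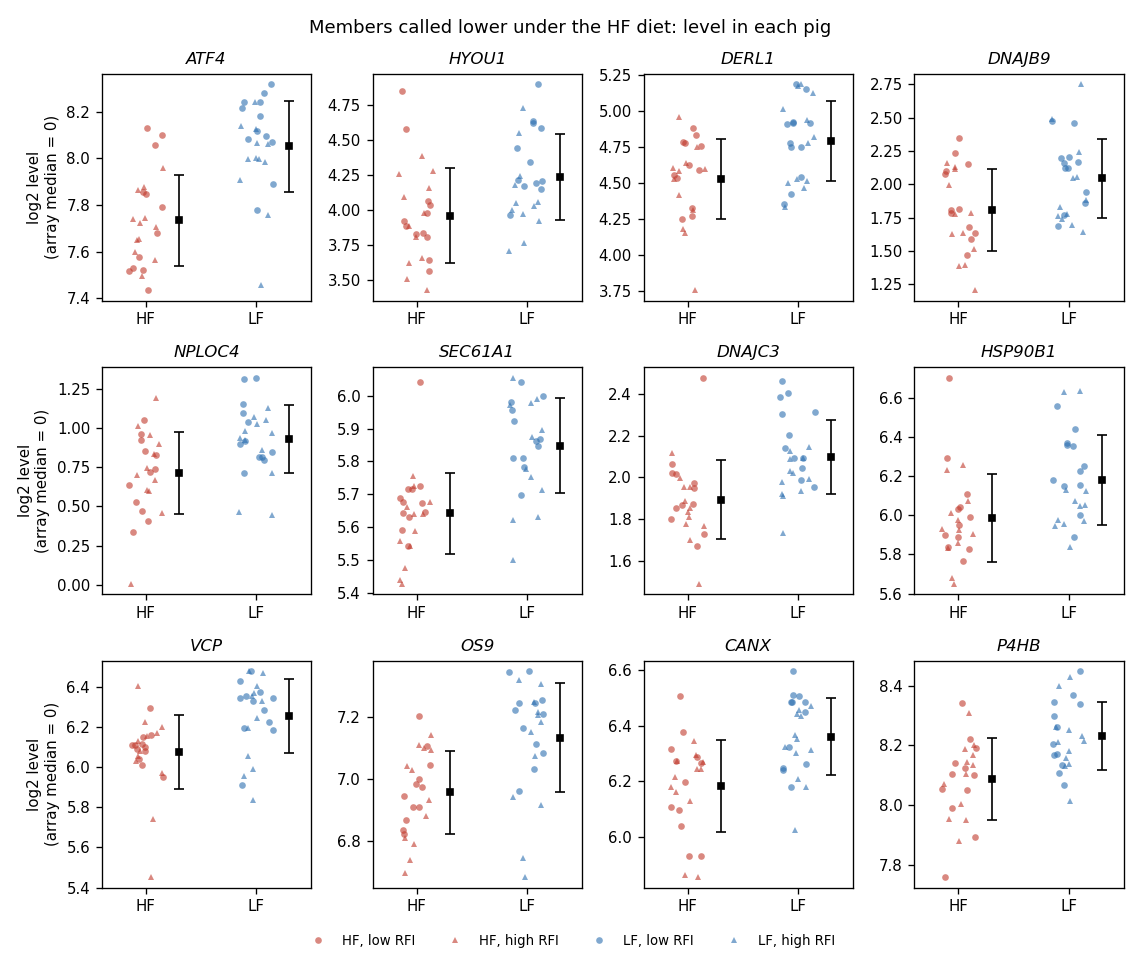
Level of the 12 members called lower under the HF diet in each of the 48 pigs, ordered by the size of the difference, with the log2 level relative to the array median on the vertical axis. Circles are low RFI and triangles high RFI pigs, and black squares with bars are means with SD (n = 24 per diet). In each panel the HF mean lies below the LF mean and the ranges overlap.

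Stress sensors and transcription factors were 9, of which 7 were tested and 1 was called. *ATF4*, the transcription factor of the eIF2 arm that drives amino acid synthesis and transport genes, ranged from 7.44 to 8.13 in HF pigs (median 7.71) and from 7.46 to 8.32 in LF pigs (median 8.07). The highest HF pig was exceeded by 8 LF pigs, and 23 of 24 LF pigs lay above the HF mean. Its log2 difference of -0.32 (SE 0.05, adjusted p = 0.000171) had the largest size among the members, and its adjusted p was at most 0.0407 over the alternatives. All 7 probes of *ATF4* were called, from -0.34 to -0.27, although 2 of them are the overlapping pair printed above.

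The 3 sensors were not called. *ERN1* was dim, above background on 44 of 48 arrays, and ranged from -4.42 to -2.74 in HF pigs and from -4.01 to -2.70 in LF pigs (difference -0.10, SE 0.11, adjusted p = 0.625). *EIF2AK3* ranged from -1.46 to -0.44 and from -1.45 to -0.14 (difference -0.05, SE 0.07), and *ATF6* from 2.29 to 2.77 and from 2.27 to 2.91 (difference -0.06, SE 0.05). For each of these the diet groups overlapped almost fully, and the sign turned under at least 1 alternative.

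*XBP1* had a level of 6.10 to 6.79 in HF pigs (median 6.40) and of 5.85 to 6.74 in LF pigs (median 6.41). The medians nearly coincided, and its log2 difference was 0.04 (SE 0.06, adjusted p = 0.677). All 9 of its probes lay between 0.01 and 0.08. Spliced and unspliced forms were not told apart here. *DDIT3*, the factor CHOP that acts late in lasting ER stress, ranged from 3.33 to 4.60 in HF pigs and from 3.49 to 4.68 in LF pigs, with a difference of -0.09 (SE 0.08, adjusted p = 0.512) at the probe used and of -0.10 and -0.08 at the other 2. Those other 2 probes share all 60 bases, so that they are not separate measurements. *EIF2S1* differed by -0.11 (SE 0.04, adjusted p = 0.0773), which is 1.08-fold, and missed the cut-offs on fold change and on the raw p (0.011).

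Genes of ER-associated degradation were 12, of which 10 were tested and 4 were called lower, with a median of -0.12. *DERL1*, a channel protein of the retrotranslocation site, ranged from 3.76 to 4.96 in HF pigs (median 4.59) and from 4.33 to 5.19 in LF pigs (median 4.80). At the low end 7 HF pigs were below every LF pig, and at the high end 6 LF pigs were above every HF pig. The log2 difference was -0.26 (SE 0.08, adjusted p = 0.0239). All 3 probes of *DERL1* were called, but their differences spread from -0.51 to -0.26, and the probe used had the smallest.

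*VCP* encodes the ATPase p97 that pulls proteins out of the membrane. It ranged from 5.45 to 6.40 in HF pigs (median 6.10) and from 5.84 to 6.48 in LF pigs (median 6.33). Within these ranges 22 of 24 HF pigs were below the LF mean, for a log2 difference of -0.18 (SE 0.05, adjusted p = 0.0223). Of its 7 kept probes 4 were called and 6 had a difference below 0. Of the cofactors of p97, *NPLOC4* ranged from 0.01 to 1.19 in HF pigs (median 0.73) and from 0.45 to 1.32 in LF pigs (median 0.93), with 22 of 24 LF pigs above the HF mean, and was lower under the HF diet (-0.22, SE 0.07, adjusted p = 0.0377), whereas *UFD1L*, its partner, had -0.14 (SE 0.07, adjusted p = 0.181) and *UBXN4* -0.10 (SE 0.07, adjusted p = 0.411). The difference of *NPLOC4* ran from -0.36 to -0.07 over the alternatives, and its call was lost with 75th percentile scaling, array position as a block and each scan date alone (adjusted p up to 0.631). *UFD1L* did pass with slide as a block (adjusted p = 0.0511), with the replicate number as a block (adjusted p = 0.0468) and, like *UBXN4*, with the array median as covariate. Of the 5 probes of *UFD1L*, 2 others were called.

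*OS9*, a lectin that delivers misfolded glycoproteins to the ubiquitin ligase, ranged from 6.70 to 7.20 in HF pigs (median 6.96) and from 6.68 to 7.35 in LF pigs (median 7.20). The lowest pig was an LF pig, but 12 of 24 LF pigs were above every HF pig. Its log2 difference was -0.18 (SE 0.05, adjusted p = 0.00862). The other kept probe of *OS9* was at -0.14 and was not called. The ligase itself was not called. *SYVN1*, which encodes the ubiquitin ligase HRD1 and was above background on 47 arrays, differed by -0.02 (SE 0.13) and its adaptor *SEL1L* by -0.10 (SE 0.07, adjusted p = 0.394). The other probe of *SEL1L* was called at -0.23, and the gene passed with the mean of all kept probes. *EDEM2*, which trims mannose from misfolded glycoproteins, was at -0.05 (SE 0.07). *HERPUD1*, a small membrane protein of the ligase complex that is a well known target of the unfolded protein response, had a difference of 0.10 (SE 0.09, adjusted p = 0.488), and together with *PDIA3* and *XBP1* it was one of 3 members above 0. The other probe of *HERPUD1* was at -0.09 and that of *PDIA3* at -0.02, whereas all 9 probes of *XBP1* were above 0.

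Translocon genes were 3. *SEC61A1*, the channel-forming subunit, ranged from 5.43 to 6.04 in HF pigs (median 5.64) and from 5.50 to 6.06 in LF pigs (median 5.87). All but 1 of the 24 HF pigs lay below the LF mean. The log2 difference was -0.21 (SE 0.04, adjusted p = 0.000544), and 3 of its 4 probes were called. *SEC61B* and *SSR1* differed by -0.08 (SE 0.04, adjusted p = 0.224) and -0.06 (SE 0.05, adjusted p = 0.461).

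Over all kept probes of the members, 39 of 112 were called lower under the HF diet and none higher, and 13.1% of all 44356 probes were called, 7.44% lower and 5.61% higher. These probes are not independent, because several belong to each gene. Within the first scan date (24 arrays) 27 of the 35 members were below 0 with a median of -0.07, and within the second (24 arrays) 33 were, with a median of -0.15. The median of the chaperones was -0.08 in the first and -0.26 in the second. *HSPA5* differed by -0.09 and -0.37, in the same order, and whether the diet difference itself differed between scan dates was not tested. Over all genes the median was -0.04 in both, with 548 called lower and 115 higher in the first, and 191 lower and 72 higher in the second. All 12 called members were below 0 in both, though these arrays had also served to choose them, and 3 and 5 of them passed the cut-offs there. Without the 3 arrays of lowest share above background 11 members were called.

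Marker lists of cell types were read beside these results. Among 11 tested adipocyte markers, *LEP* (-0.67, SE 0.16) and *CIDEA* (-0.36, SE 0.10) were lower under the HF diet and none was higher, and the summed linear level of the list ran from 2466 to 3460 in HF and from 2451 to 3504 in LF pigs. Of the 4 defining markers, *ADIPOQ*, *PLIN1*, *LIPE* and *FABP4*, none was called. Fibroblast and matrix markers were called higher for 3 of 12 (*COL1A2*, *COL6A1* and *PDGFRA*), 10 of 12 had a difference above 0 (median 0.17), and the list sums ran from 2216 to 3515 in HF pigs (median 2860) and from 2053 to 4283 in LF pigs (median 2567). No marker of macrophages (12 tested), B and plasma cells (7), endothelium (7), skeletal muscle (10) or blood cells (4) was called. However, all 10 muscle markers had a difference below 0 (median -0.21, from -0.51 to -0.08), as had all 4 blood cell markers (median -0.12). The summed muscle level ran from 39.6 to 88.5 in HF and from 41.3 to 140.1 in LF pigs, and the blood cell level from 13.8 to 48.2 and from 14.4 to 55.0. The part of the adipocyte, matrix, muscle and blood cell markers in the results for the members was not tested.

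Within the low RFI line 4 members were called lower under the HF diet, where 1.84% of all genes were lower and 0.631% higher (2.47% in all). They were *ATF4* (-0.37, adjusted p = 0.011), *DNAJC3* (-0.26, adjusted p = 0.0491), *OS9* (-0.22, adjusted p = 0.0675) and *SEC61A1* (-0.19, adjusted p = 0.064). In the high RFI line only *SEC61A1* passed (-0.22, adjusted p = 0.0391), beside 1.25% of all genes lower and 0.261% higher (1.51% in all). Over the alternatives these counts ran from 0 to 10 in the low and from 0 to 4 in the high RFI line. *ATF4* had -0.26 in the high RFI line with an adjusted p of 0.0854, just past the cut-off of 0.08. The medians over the members were -0.15 and -0.12.

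No member showed an interaction between diet and line, with 0 of 35 called by limma, 0 with an unadjusted p under 0.05 and 0 under the analysis of variance without moderation, and none was called among all genes tested (0%). The difference of the 2 diet effects was largest for *SDF2L1*, listed among the chaperones and folding enzymes. Its diet difference was -0.33 in the low RFI line and 0.08 in the high RFI line, an interaction of -0.40 (SE 0.24, unadjusted p = 0.0972 by limma). For *HSPA5* the 2 differences were -0.34 and -0.12 (interaction -0.21, SE 0.18), and for *ATF4* the interaction was -0.11. With 12 pigs per group these intervals are wide. All 4 blood cell markers also had an interaction below 0 (median -0.38), while 9 of 10 muscle markers had one above 0 (median 0.19), none of them called. Their part in the values of the members was not tested.

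**Figure D3:**
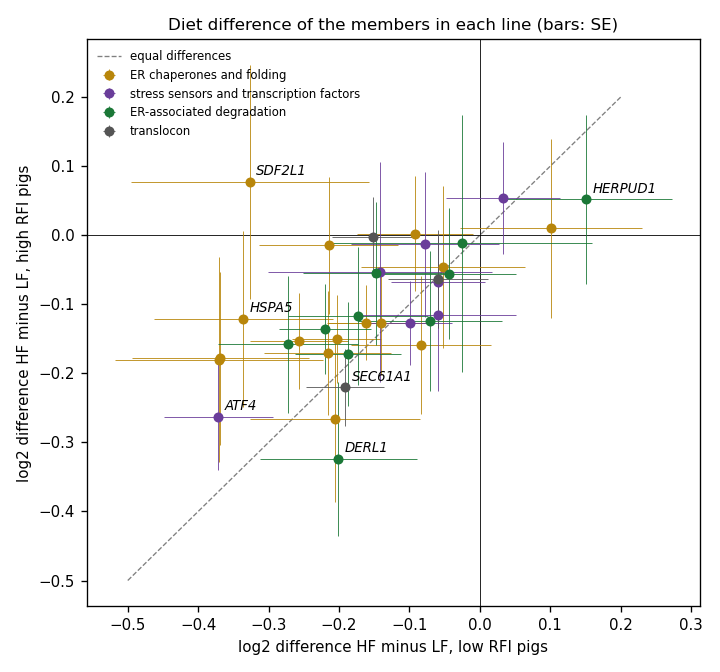
Log2 difference HF minus LF of each member in the low RFI line (horizontal) and the high RFI line (vertical) with standard errors, coloured by role. The dashed line marks equal differences. Most points lie below 0 on both axes, and SDF2L1, at -0.33 and 0.08, is farthest from the line.

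The comparison of lines asked whether efficient pigs differed in these genes irrespective of diet. None of the 35 members was called by limma, where 1.14% of all genes were (0.757% above and 0.387% below the high RFI line), although 31 were above 0 in low RFI pigs with a median of 0.05 beside 0.02 over all genes. At an unadjusted p under 0.05 there were 3 of 35, *HSPA5*, *DNAJC3* and *SEC61A1*, beside 1136 of all 11097 genes, which is no smaller a share, and the analysis of variance without moderation called none. No cell type marker was called between lines by limma (2 adipocyte, 1 macrophage and 1 endothelial marker had an unadjusted p under 0.05), but 10 of 12 macrophage markers (median -0.14) and 10 of 12 fibroblast and matrix markers (median -0.08) were below 0 in low RFI pigs, and 8 of 11 adipocyte markers were above 0 (median 0.10). Their part in the values of the members was not tested. *HSPA5* ranged from 5.46 to 6.75 in low RFI pigs (median 6.01) and from 5.22 to 6.69 in high RFI pigs (median 5.79). The largest separation was between LF low RFI pigs (median 6.40, from 5.67 to 6.64) and the other groups, whose medians lay between 5.78 and 5.85. The line difference of *HSPA5* was 0.22 (SE 0.09, adjusted p = 0.308), and under the LF diet alone it was 0.33 (SE 0.13, adjusted p = 0.566). No member was called between lines under either diet alone by limma. Of all genes, 0.00901% were called under the HF diet, all of them higher in low RFI pigs (0.00901%), and 0.0631% under the LF diet (0.0451% higher and 0.018% lower).

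*DNAJC3* was higher by 0.15 in low RFI pigs (SE 0.05, adjusted p = 0.166), from 1.67 to 2.48 against 1.49 to 2.14, and 18 of 24 low RFI pigs exceeded the high RFI mean. With array weights it passed the cut-offs (adjusted p = 0.0563), as the only member to do so in any of the alternatives. Of all kept member probes 1 was called between lines, another probe of *SEC61A1* than the one used, which was 0.18 higher in low RFI pigs (adjusted p = 0.0507), and 1.37% of all probes were (0.809% higher and 0.557% lower). *DERL1*, *VCP*, *NPLOC4* and *OS9*, which were lower under the HF diet, had line differences between 0.04 and 0.08.

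How the members varied together from pig to pig was examined on levels from which the mean of each group had been removed, so that neither diet nor line enters. *HSPA5* was taken as the reference, and 34 members were compared with it over 48 pigs (permutation within groups, 100000 resamples, two-sided, Benjamini-Hochberg over the 34). With an adjusted p under 0.05 there were 13 relations, 11 of them positive, and 12 by Spearman's rho. These 13 were also those with an unadjusted p under 0.05, that is 38.2% of the members (32.4% positive and 5.88% negative), beside 25.1% of all 11096 genes other than *HSPA5*, tested in the same way (13.7% positive and 11.4% negative). The closest were those of chaperones. *HSP90B1* had r = 0.85 (rho = 0.80, p = 1e-05, the smallest these resamples can give, adjusted p = 6.8e-05), *CALR* 0.84, *HYOU1* 0.76, *DNAJC3* 0.75 and *MANF* 0.70.

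These relations were somewhat weaker when the most extreme pigs were left out. Without the 2 pigs farthest from the median of *HSPA5*, r was 0.79 for *HSP90B1*, 0.80 for *CALR*, 0.67 for *HYOU1*, 0.69 for *DNAJC3* and 0.63 for *MANF*. Within the first and the second scan date, r was 0.77 and 0.85 for *HSP90B1* and 0.74 and 0.90 for *CALR*. *SDF2L1* (0.51) and *DNAJB9* (0.51) depended more on the date, with 0.14 and 0.32 in the first and 0.75 and 0.74 in the second.

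Among the degradation genes, *HERPUD1* (r = 0.64, rho = 0.53, adjusted p = 0.000113) and *SYVN1* (r = 0.47, adjusted p = 0.00548) were positively related to *HSPA5*. For *SYVN1* r was 0.22 and 0.43 within the scan dates and 0.36 with slide means removed. *DERL1*, *OS9*, *VCP* and *NPLOC4*, all lower under the HF diet, were between -0.14 and 0.21 and did not pass, but *VCP* did with slide means removed (r = 0.37, adjusted p = 0.0259). *SSR1* of the translocon was inversely related (r = -0.41, rho = -0.49, adjusted p = 0.0166). *UFD1L* also was (r = -0.40, adjusted p = 0.0237), but r was -0.16 and -0.27 within the scan dates, and -0.23 (adjusted p = 0.212) with slide means removed. Within the first scan date r was 0.32 for *HERPUD1*, and within the second 0.71.

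**Figure D4:**
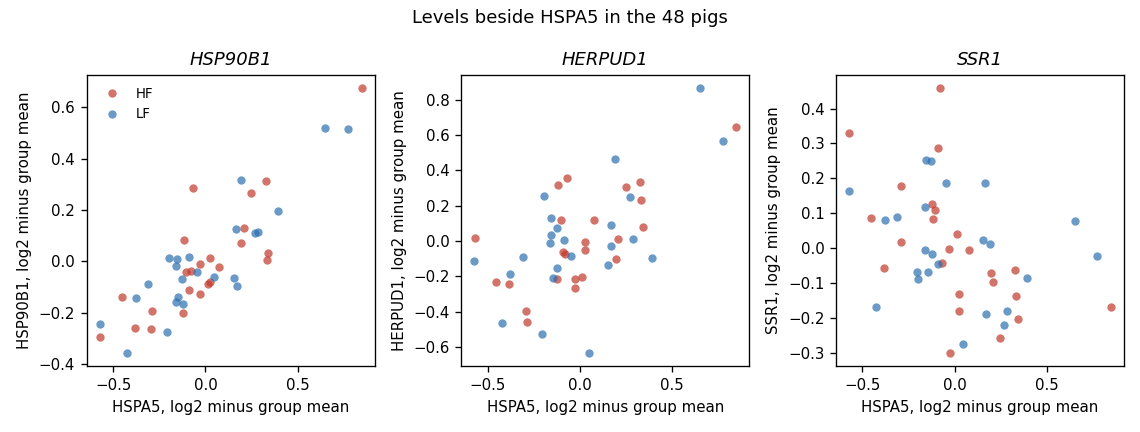
Level of HSP90B1, HERPUD1 and SSR1 against that of HSPA5 in the 48 pigs (log2, minus the mean of the pig's group), with HF pigs in red and LF pigs in blue. Pearson's r was 0.85, 0.64 and -0.41.

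No sensor or factor passed the permutation test against *HSPA5*. *ATF4* had r = 0.29 (adjusted p = 0.134), *XBP1* 0.28, *EIF2AK3* 0.21, *ERN1* 0.18, *ATF6* 0.03 and *DDIT3* -0.29 (adjusted p = 0.12). With slide means removed *XBP1* did pass (r = 0.50, adjusted p = 0.00159), and so did *PDIA4* (0.53) and *PDIA6* (0.48), while *ATF4* (0.23), *EIF2AK3* (0.02), *ERN1* (0.08), *ATF6* (-0.17) and *DDIT3* (-0.17) did not. *XBP1* was also closely related to *PDIA6* (r = 0.81) and *PDIA4* (r = 0.79), which were related to each other (0.83). These pairs were picked for their high r, and carry no test.

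Over pairs of genes, the median r was 0.37 among the chaperones (105 pairs), 0.08 among the sensors and factors (21), 0.07 among the degradation genes (45) and 0.13 over all 595 pairs of members, beside 0.01 over all pairs of the 11097 genes. With slide means removed as well, the median over the members was 0.12. Among the degradation genes the pairs of extreme r, picked for it and not tested, had both signs. *UFD1L*, *DERL1* and *UBXN4* were positively related to each other, whereas *SEL1L* had r = -0.69 with *UBXN4* and -0.64 with *UFD1L*, and *SYVN1* had -0.66 with *UFD1L*.

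The median signal of the array before centring moved with several of these genes. Its r over the 48 arrays, with group means removed, was 0.75 for *PDIA6*, 0.72 for *PDIA4*, 0.66 for *XBP1* and 0.61 for *UBXN4*, and -0.75 for *SEL1L*, -0.58 for *EIF2AK3* and -0.52 for *SYVN1*. In all, 4 members were above 0.5 and 6 below -0.5. Its part in the relations of these genes was not tested. For *HSPA5*, *HSP90B1*, *CALR*, *DNAJC3* and *MANF* the same r lay between -0.13 and 0.03, and for *HYOU1* it was 0.28. With slide means removed as well, r was -0.52 for *SEL1L* with *UBXN4* and -0.41 for *SYVN1* with *UFD1L*, and 0.84 for *HSPA5* with *HSP90B1*.

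**Figure D5:**
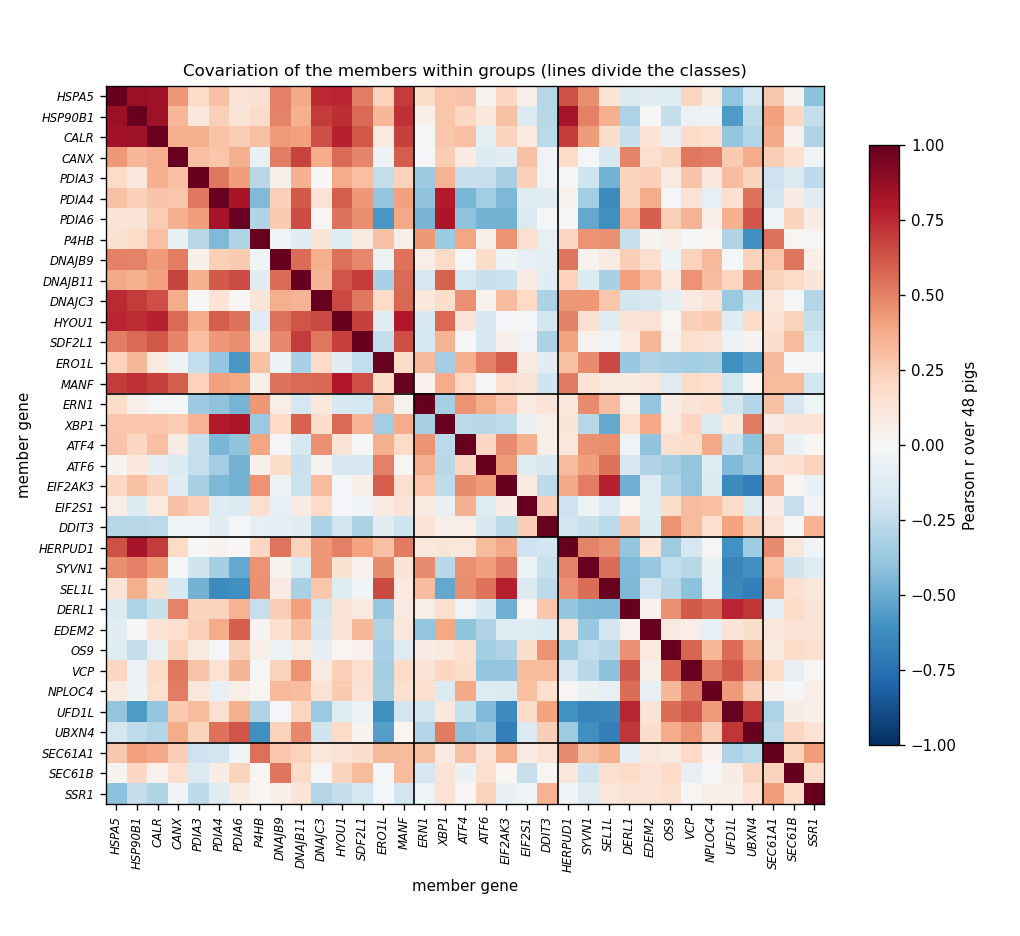
Pearson's r between all pairs of the 35 members over 48 pigs, on log2 levels minus the group mean, from -1 (blue) to 1 (red), with black lines between the classes of genes. A block of high values joins HSPA5, HSP90B1, CALR, DNAJC3, HYOU1 and MANF, and extends to HERPUD1, while SEL1L and SYVN1 are negative with UFD1L and UBXN4.

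Other genes of the same pathways were counted from lists chosen by function. Of 143 such genes tested, 20 were lower and 4 higher under the HF diet, with a median of -0.08. That is 14% lower and 2.8% higher, beside 9.34% and 3.28% of all genes tested, whose median was -0.04. Of 38 other degradation genes 6 were lower and none higher. Among them were *UBE2G1* (-0.25), a ubiquitin-conjugating enzyme, and *RAD23B* (-0.24), which escorts ubiquitinated proteins to the proteasome. The ligase *RNF5* (-0.18) and the ER ATPase *TOR1A* (-0.17) were others. The study had itself listed *UBE2G1*, *RAD23B* and, named below, *PPP1R15B* as lower under the HF diet in these pigs. These genes are therefore not independent evidence of the direction. Of 29 other genes of entry into the ER 5 were lower and 1 higher: *SRP9* of the signal recognition particle (-0.24), the signal peptidase subunit *SPCS3* (-0.21) and the oligosaccharyltransferase subunit *STT3B* (-0.21) fell, and *SSR4* rose (0.21), which like *SSR1* is a subunit of the translocon-associated complex.

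Of 32 other folding genes 5 were lower and 1 higher. *SERP1* (-0.26), a stabilizer of newly made membrane proteins, *MLEC* (-0.25), a lectin of early glycans, and *SDF2* (-0.17) fell. The gene that rose was *FKBP10* (0.49), a prolyl isomerase that works on collagen. Of 34 other genes of the ATF4 and eIF2 arm 2 were lower and 1 higher (5.88% and 2.94%, both below the shares of all genes): *PPP1R15B* (-0.24), which brings the phosphatase to eIF2, and *CEBPG* (-0.23), a dimer partner of *ATF4*, fell, and *PHGDH* (0.53), the first enzyme of serine synthesis, rose. Of 10 other sensors and processing genes *TMBIM6* (-0.18) and *CREB3* (-0.14) fell and *MAP3K5* (0.27) rose.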

How the data were processed

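Data were 48 single-colour arrays of SCAT. Per the file headers, spot intensity had been extracted by the authors with Feature Extraction 10.7.3.1. The processed signal is background-subtracted intensity. The authors filtered spots and centred log2 values on the array median in R 2.10.0. Their deposited table of log2 values (38987 probes) matched the log2 median signal of the scanner files, centred on the array median, within 4.87e-09, and was used as an alternative.

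Here, non-uniform and outlier spots were set to missing, and probes were kept (44356) where 9 or more arrays of any group of 12 read well above background. No spot was saturated, and the number of arrays limits the precision. The log2 processed signal was centred on the array median. Each gene was represented by its brightest kept probe. Names came from the reference gene table (Sscrofa11.1) and the array files.

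Diet, line and interaction were fitted to all 48 arrays with limma 3.58.1 (lmFit, eBayes with trend) in R 4.3.3, two-sided, and adjusted over all 11097 genes. The cut-offs were those of the study, whose two-way analysis of variance was an alternative. The fits were tested on simulated data. Relations to *HSPA5* were computed with numpy 2.4.6.

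Full values are given for the members called and for *HSPA5*, *HSP90B1*, *ERN1*, *EIF2AK3*, *ATF6*, *XBP1*, *ATF4* and *DDIT3*, and at most 4 called genes are named per other list. Other members, probes and pairs were named after their values were seen. The members and lists were chosen with earlier results of these data known. The alternatives numbered 17, and 1 was added after seeing the data (without the 3 arrays of lowest share above background). The labels do not say whether the pigs of a group shared a litter or pen.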

Additional observations from a re-analysis of the deposited data

How the results depend on the processing

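The 12 members called for diet kept their direction under all 17 alternatives and without the 3 arrays of lowest share above background, while the calls depended on the setting. Members called for diet, called for diet within the low RFI line, within the high RFI line and member probes called for diet (12, 4, 1 and 39 as reported) were 5, 1, 0 and 22 with 75th percentile scaling, 3, 0, 0 and 15 within the first scan date, and 5, 0, 0 and 13 within the second. After quantile normalization they were 6, 2, 1 and 24. The count in low RFI pigs was 2 with normexp, 0 with array position as a block, 6 with slide as a block, 10 with array weights and 8 with the array median as covariate. In high RFI pigs it was 2 with the median signal, the deposited table or no filter on dim probes, 3 with slide or scan date as a block or with array weights, 4 with the array median and 0 with array position. Array weights called 1 member for line, and no alternative called one for the interaction. Genes called for diet were 663 within the first scan date and 263 within the second, and genes called for line were 225 with slide, 205 with scan date, 44 with array position, 478 with array weights and 0 within the second scan date.

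Signs turned only for members not called in either fit: for diet 5 of 35 within the first scan date, 6 with the array median as covariate, at most 2 under any other alternative, and for line 5 and 6 within the scan dates and at most 3 otherwise. Among the members always given with full values, those for diet were *ERN1* (0.0206), *EIF2AK3* (0.0445) and *XBP1* (-0.0358) with the array median as covariate, *EIF2AK3* (0.05004) within the first scan date and *ATF6* (0.0205) with the deposited table. For line those were *EIF2AK3* (-0.0427 within the second scan date, -0.0038 with the array median), *ATF6* (0.0600 with the deposited table, 0.0069 with the mean of all probes, 0.0081 within the first scan date) and *XBP1* (-0.0044 after quantile normalization). The cause was not tested. Relations to *HSPA5* were 13 as reported, 14 with 75th percentile scaling, 15 after quantile normalization and 17 with slide means removed.

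Same-numbered arrays lay on the same slide for all 12 numbers, but the labels give the number no meaning, and 45 of 72 pairs correlated above 0.1. Their median was 0.17, beside -0.03 for other pairs. As not every pair was above 0.1, the replicate number was not taken as a pairing. With the replicate number as a block 13 members were called for diet, 7 in the low and 3 in the high RFI line, 42 probes, and 288 genes for line. Of all 11097 genes, 1241 were then called lower and 451 higher for diet. Of 48 arrays, 1 correlated best with its own number.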

Other observations

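Probes that carry no gene symbol but whose description in the array files names a member protein were looked at separately, outside the rule used for the members. A probe described as EDEM1 (A_72_P255887), which trims mannose from misfolded glycoproteins, ranged from 0.53 to 1.60 in HF pigs and from 0.63 to 1.42 in LF pigs (log2 relative to the array median), with a difference of 0.04 (SE 0.07). A probe described as PDIA6 (A_72_P330858) ranged from 3.01 to 3.74 in HF pigs and from 3.15 to 4.04 in LF pigs, and was lower under the HF diet by a log2 difference of -0.25 (SE 0.07, limma adjusted p = 0.0124). A probe described as PDIA4 (A_72_P015561) had a difference of -0.26 (SE 0.13, adjusted p = 0.184). All 3 were above background on the 48 arrays.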
